A study of Homo sapiens with 24 samples.

Results

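8-amino-adenosine (8AA) was compared directly with 8-chloro-adenosine (8CA) in KG-1a cells after 8 h at the same dose of 1 μM. Both compounds are modified adenosines that carry a different group at position 8 of the adenine ring, an amino group in 8AA and a chlorine in 8CA. The contrast holds the 2 libraries labelled 8AA and the 2 labelled 8CA, 4 of the 24 libraries of the series, and it leaves the untreated libraries out. Its libraries are defined by treatment, cell line and time, not by a measured value, and 12711 of the 23354 genes in the table had enough counts to be tested. KG-1a is an established human acute myeloid leukemia (AML) cell line of immature, CD34-positive character, and it carried no engineered change in the labels. The series also holds untreated KG-1a cells at 8 h (2 libraries), the same 3 conditions at 24 h, and the same 6 groups in MV4-11, a second AML line, with 2 libraries per group throughout. The hours of the untreated libraries are given only in their titles. The labels do not say whether replicates came from separate cultures, so the p-values measure the spread between replicate libraries, which may be technical. For the KG-1a tests that spread was estimated over all 12 KG-1a libraries, those of 24 h included, and not from the 4 of the contrast alone.

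Nucleoside analogs of this kind enter cells through nucleoside transporters and are phosphorylated by adenosine kinase, after which the triphosphate can compete with ATP and be built into RNA. Both compounds are known for lowering RNA synthesis in leukemia cells, so that short-lived messages are among the first to be lost. Several programs described here are ones that cells switch on or off within hours: the integrated stress response, in which the factor ATF4 turns on amino acid transport and synthesis, the early genes downstream of the kinase ERK, and the MYC program that feeds ribosome production.

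The 4 libraries of the contrast held between 19597279 and 23181651 counts, and their TMM scaling factors lay between 0.980 and 1.00. Replicates differed by more than sampling noise in both groups, so none was counted as a repeat of another (chi-square per degree of freedom 1.43 for 8CA and 2.07 for 8AA). Of the fixed KG-1a markers, CD34 had 7170 to 11709 counts per library at 8 h, CD7 596 to 873 and FGFR1 2581 to 3475. Of the MV4-11 markers, MEIS1 was at 0 in every KG-1a library of 8 h, CSF1R had 0 to 4 counts, FLT3 3 to 12, CD33 7 to 14 and LYZ 15 to 22, while HOXA9 (487 to 660) and HOXA10 (1624 to 1966) were expressed, with a summed level (in CPM, counts scaled to a fixed library total, for these sums by library size only) of 109 CPM in both 8CA libraries and 114 to 115 CPM with 8AA. The summed level of the 3 KG-1a markers was 540 to 566 CPM with 8CA and 671 to 713 CPM with 8AA. Of the markers of other cell types, all 4 of red cells, MS4A1, EPCAM, KRT18, KRT19, COL1A1 and COL1A2 were at 0, and CD79A and KRT8 had at most 14 counts. T-cell genes were present in every group, with a summed level of 261 to 264 CPM with 8CA and 280 to 298 CPM with 8AA. Whether these differences in marker level had a part in the results was not tested.

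The direct contrast called 3868 of 12711 genes, 30.4%, at a Benjamini-Hochberg adjusted p below 0.05 in edgeR's quasi-likelihood test. With 8AA, 1865 genes (14.7%) were higher than with 8CA and 2003 (15.8%) were lower. The balance turned with the scaling, to 2262 higher and 1755 lower by library size only and to 2119 and 1850 by the upper quartile. Most of the differences were small. On the log2 scale, 1323 of the called genes differed by under 0.25, 1755 by 0.25 to 0.5, 640 by 0.5 to 1 and 150 by at least 1, and the median absolute difference of the called genes was 0.31. The 150 genes that differed by at least 1 were 1.18% of those tested, and 90 of them were lower and 60 higher with 8AA. Each compound was also set against the shared untreated libraries, which makes the 2 sets of values dependent. 8AA differed from untreated cells at 4415 genes (34.7%, 2124 higher and 2291 lower, so that 51.9% of the calls were lower, or 41.8% when libraries were scaled by their size only), and 8CA at 112 genes (0.881%, 89 higher and 23 lower), with 1654 genes at an unadjusted p below 0.05 for 8CA. Without any 1 of the 4 libraries the direct contrast called 2309 (8CA A), 2237 (8CA B), 2386 (8AA A) or 2342 genes (8AA B). Without any 1 of its own 4 libraries, the comparison of 8CA with untreated cells called 28 to 37, and that of 8AA 2841 (without 8AA B) to 3265.

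For the 8843 genes not called, the 95% confidence interval of the difference shows how alike the compounds can be said to be. The interval lay wholly within 0.25 log2 units of zero for 3415 of them (38.6%), within 0.5 for 6395 (72.3%) and within 1 for 7630 (86.3%). These intervals are not adjusted for the number of genes, so some genes that were not called have intervals that leave out zero. The intervals of the remaining genes reached past 1 log2 unit, so a difference of that size was not excluded for them. The 2 values of 8AA lay wholly above or wholly below the 2 of 8CA for 9002 of the 12711 genes, 70.8%, and for 5134 of the 8843 that were not called. All 3868 called genes were of this kind, as were most of those not called, so a lack of overlap on its own did not mark a called gene. Since the counts are relative to each library's total, fewer cells and less RNA per cell cannot be told apart from these values.

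**Figure D1:**
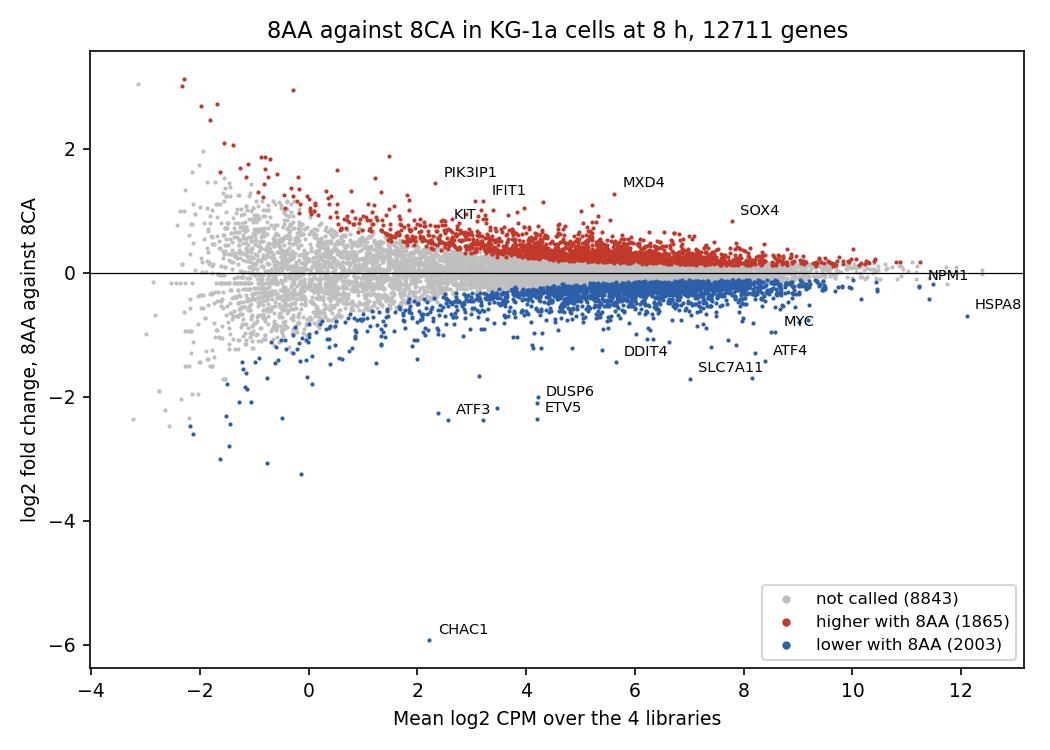
Each point is 1 of the 12711 genes tested, with its mean log2 CPM over the 4 libraries on the horizontal axis and its log2 fold change of 8AA against 8CA in KG-1a cells at 8 h on the vertical axis. The 1865 genes called higher (red) and the 2003 called lower (blue) with 8AA mostly lie within 0.5 of zero, and CHAC1 stands lowest at -5.92.

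Genes of the integrated stress response were lower with 8AA than with 8CA at nearly every member tested. Of 33 listed targets and partners of ATF4, 30 were tested, and 28 were lower with 8AA than with 8CA while 0 were higher, against a background of 15.8% lower over all genes. The median of the 30 was -0.94 on the log2 scale, beside 0.0060 for all genes. The remaining members, CTH and ALDH18A1, were not called. By role, all 11 tested effectors and regulators were lower (median -1.16), as were all 8 amino acid transporters (median -1.24) and 9 of 11 enzymes of amino acid and one-carbon synthesis (median -0.71). The 3 listed genes left out by the filter on low counts are not part of these counts.

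The 250 bases upstream of the RefSeq start site are shown for CHAC1, which had the largest difference of all genes, and for ASNS, a classic ATF4 target, because these were the only members whose stretch held the composite element bound by ATF4 and C/EBP partners. Both are given 5′ to 3′ on the strand of the gene in the build GRCh38.p14, with the matching letters in capitals. For CHAC1 (chr15:40953221-40953470, plus strand) the capitals are the reverse complement of TGATGCAA and begin 209 bases before the start site. For ASNS (chr7:97872409-97872658, minus strand) they match TGATGNAA and begin 68 bases before it.
CHAC1: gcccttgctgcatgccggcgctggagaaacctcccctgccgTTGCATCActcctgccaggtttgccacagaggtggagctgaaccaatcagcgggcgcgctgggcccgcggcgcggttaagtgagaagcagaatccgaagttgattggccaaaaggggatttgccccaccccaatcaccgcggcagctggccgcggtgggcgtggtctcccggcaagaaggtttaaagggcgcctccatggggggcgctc
ASNS: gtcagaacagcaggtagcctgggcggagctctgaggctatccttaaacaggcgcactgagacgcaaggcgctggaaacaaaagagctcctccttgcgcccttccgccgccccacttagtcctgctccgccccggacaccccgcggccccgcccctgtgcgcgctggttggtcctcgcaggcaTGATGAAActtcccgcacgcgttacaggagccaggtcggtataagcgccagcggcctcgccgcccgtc

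Upstream stretches were found for 10073 of the 12711 tested genes (79.2%) and for 25 of the 30 ATF4-list members. Read on both strands, TGATGCAA was in 1 of the 25 and in 0.387% of all 10073, and TGATGNAA, which contains it, was in 2 of the 25 and in 1.44% of all. The other motifs searched were CACGTG (3 of 25, 9.18% of all), CCAAT (13 of 25, 35.4%), GGGCGG (15 of 25, 66.0%), TATAAA (2 of 25, 5.39%), CCGGAAGT (1 of 25, 7.40%), TGACGTCA (0 of 25, 2.86%) and GCATGCGC (0 of 25, 5.01%). Because fewer than 80% of the tested genes had a stretch, shares in genes called higher or lower were not compared.

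CHAC1, an enzyme that breaks down glutathione, had 33.1 and 34.3 CPM in the 2 libraries with 8CA and 0.582 and 0.517 CPM in the 2 with 8AA, and 3.68 and 3.44 CPM in the untreated libraries. The 8CA libraries were thus above, and the 8AA libraries below, every untreated library. The difference between the compounds was -5.92 (SE 0.13, adjusted p = 1.42e-13). Counts were 697 and 659 with 8CA and 13 and 12 with 8AA. ATF4 itself, the factor that gives the list its name, had 557 and 542 CPM with 8CA and 208 and 201 CPM with 8AA, and untreated cells had 349 and 336. The difference was -1.42 (SE 0.061, adjusted p = 2.76e-10). SESN2 (sestrin 2), an inhibitor of mTORC1 signaling, had 37.8 and 36.3 CPM with 8CA, 9.31 and 9.05 CPM with 8AA and 9.82 and 9.90 CPM without treatment. DDIT4, a second mTORC1 inhibitor, had 82.5 and 82.8 CPM with 8CA, 31.9 and 28.7 CPM with 8AA and 34.2 and 33.6 CPM without treatment. For both genes the libraries of 8CA were far above the rest, and the 8AA libraries were just below the untreated ones. The differences between the compounds were -2.01 (SE 0.083) and -1.45 (SE 0.073).

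Other regulators of the response were lower with 8AA as well. The difference was -3.24 for STC2, a secreted glycoprotein, -1.16 for the transcription factor CEBPB, -0.92 for the pseudokinase TRIB3 and -0.75 for DDIT3 (CHOP), a death-promoting factor of the same pathway. ATF5 was called at -0.32 (SE 0.097, adjusted p = 0.0220), and the call was lost without 8CA A (adjusted p = 0.176), 8AA A (0.108) or 8AA B (0.0857), and in DESeq2's Wald test (adjusted p = 0.0564). Among transporters, SLC7A11, the cystine carrier, had 234 and 234 CPM with 8CA and 67.6 and 75.5 CPM with 8AA. Its partner chain SLC3A2 had 455 and 469 CPM with 8CA against 189 and 185 CPM with 8AA. SLC7A5, which carries leucine with the same partner, had 515 and 507 CPM with 8CA against 162 and 151 CPM with 8AA. All of these pairs were apart, as for all 3868 called genes and 70.8% of all tested. The differences were -1.71, -1.30 and -1.70, with an adjusted p of 8.18e-12 for SLC7A5. The glycine carrier SLC6A9 was lower by a wider margin, at -3.08 (SE 0.49). In amino acid synthesis, PSAT1 of the serine route had 259 and 250.03 CPM with 8CA and 107 and 114 CPM with 8AA, a difference of -1.20 (SE 0.045, adjusted p = 8.61e-11). ALDH1L2, a mitochondrial folate enzyme, had 15.4 and 15.4 CPM with 8CA against 4.84 and 4.87 CPM with 8AA, and asparagine synthetase, ASNS, 27.5 and 25.9 CPM with 8CA against 16.4 and 15.04 CPM with 8AA. The differences of these were -1.67 and -0.76.

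Against the shared untreated libraries, the median of this list lay above zero for 8CA and below it for 8AA. Of the 30 members, 12 were called both higher with 8CA and lower with 8AA, beside 22 of all 12711 genes. With 8CA, 17 of the 30 members were higher than in untreated cells (11 to 14 without any 1 of the 4 libraries compared) and 0 lower, with a median of 0.42. With 8AA, 22 were lower and 2 higher, with a median of -0.43. SESN2 was at 1.91 (SE 0.085, adjusted p = 2.00e-09) for 8CA and at -0.10 (SE 0.10, adjusted p = 0.461) for 8AA. PSAT1 was at 0.61 (SE 0.044, adjusted p = 7.74e-07) for 8CA and -0.59 (SE 0.045, adjusted p = 2.10e-07) for 8AA. The backgrounds for these counts are the 0.881% and 34.7% of all genes called for each compound.

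**Figure D2:**
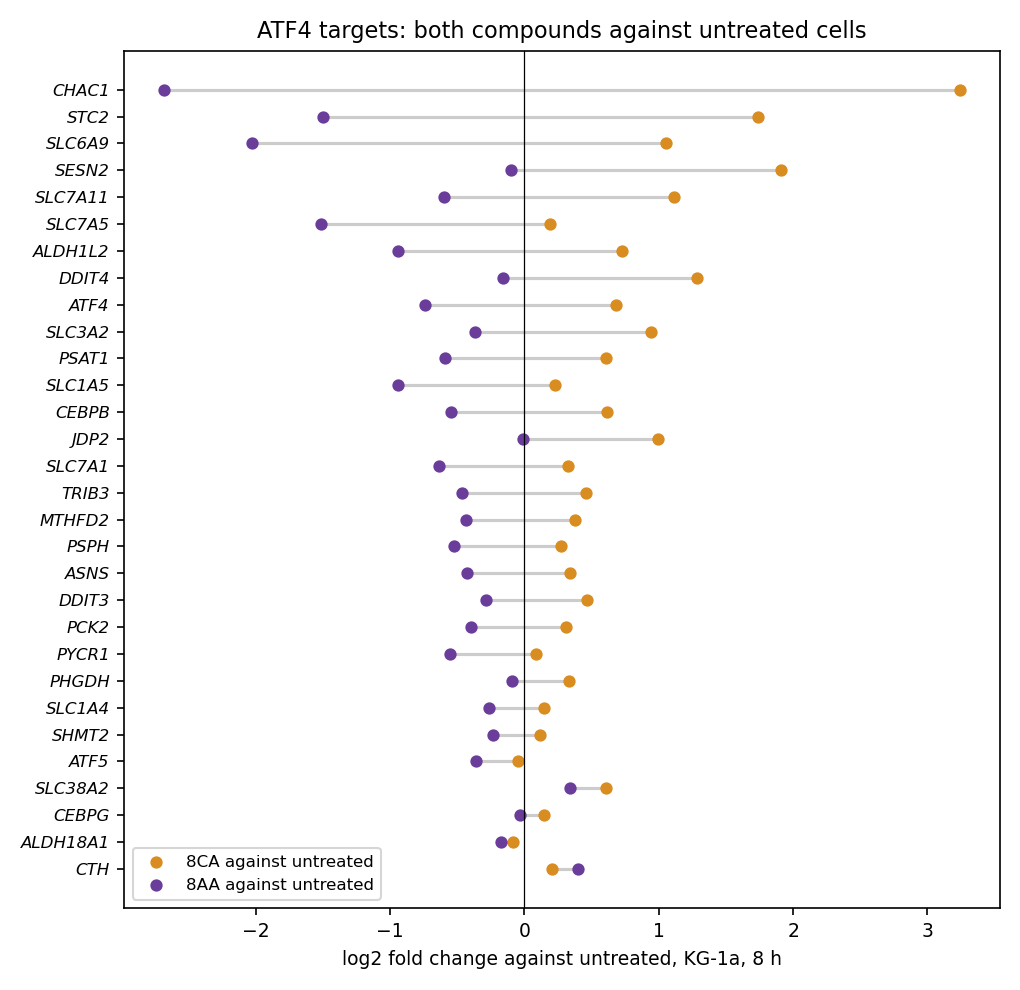
For each of the 30 tested ATF4-list members, the log2 fold change against the untreated KG-1a libraries at 8 h is shown for 8CA (orange) and for 8AA (purple), joined by a grey line, with genes ordered by the direct difference. The orange points lie to the right of the purple points for every member except CTH, and CHAC1 has the longest line.

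The cytosolic aminoacyl-tRNA synthetases, which load amino acids onto tRNAs and include further known ATF4 targets, followed the same direction. Of 20 tested, 14 were lower with 8AA and 1 was higher, beside 15.8% and 14.7% of all genes. The median was -0.33. GARS, for glycine, had 304 and 304 CPM with 8CA and 145 and 142 CPM with 8AA, a difference of -1.08 (SE 0.056, adjusted p = 1.98e-09). CARS, for cysteine, TARS, for threonine, YARS, for tyrosine, and MARS, for methionine, differed by -0.89, -0.78, -0.74 and -0.76. QARS, for glutamine, was the member that was higher, at 0.25 (SE 0.055, adjusted p = 0.00320), and it was not called without 8CA A (adjusted p = 0.0508). KARS, RARS, DARS, SARS and HARS were not called, with values between -0.13 and 0.054.

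Genes that respond early to growth signals were also lower with 8AA, though not as a whole list. Of 38 tested immediate early genes, 13 were lower and 4 higher, beside 15.8% and 14.7% of all genes, with a median of -0.30. ATF3, a stress-responsive factor of the AP-1 family, had 11.8 and 14.7 CPM with 8CA and 2.69 and 2.37 CPM with 8AA, a difference of -2.38 (SE 0.15, adjusted p = 2.25e-08). DUSP6, the phosphatase that switches off ERK and is itself turned on by it, had 37.2 and 38.7 CPM with 8CA, 8.60 and 9.14 CPM with 8AA and 37.6 and 38.2 CPM without treatment. The 8CA and untreated values were interleaved, and both 8AA values were below all of them, with a difference between the compounds of -2.10 (SE 0.083, adjusted p = 1.24e-10). ETV5, an ETS factor downstream of ERK, had 40.8 and 41.4 CPM with 8CA and 7.75 and 8.32 CPM with 8AA, which gave -2.35 (SE 0.089, adjusted p = 8.61e-11). FOSL1 and FOSL2, both AP-1 subunits, were at -1.22 and -0.70, and the feedback inhibitor SPRED2 at -1.22. RGS16, which shortens G-protein signaling, was at -2.18 (SE 0.095). SPRED1 was called at -2.08 (SE 0.57, adjusted p = 0.0109) on few counts, and not without 8CA B (adjusted p = 0.0865) or 8AA A (0.115). FOS, JUN and EGR1 were not called, with intervals of -2.11 to -0.046, -1.95 to -0.018 and -1.93 to 0.20. A set of 13 genes commonly read as outputs of ERK was put together after the values were seen and serves as a description only. It includes genes named above. In it 8 were lower with 8AA, beside 15.8% of all genes, 0 were higher and 5 were not called. For 8CA against untreated cells 0 of the 13 were called, beside 0.881% of all genes, so that count says little. The immediate early genes that were higher were the growth-restraining BTG2 (0.60), CSRNP1 (0.39), KLF6 (0.36) and the RNA-decay factor ZFP36L2 (0.29).

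**Figure D3:**
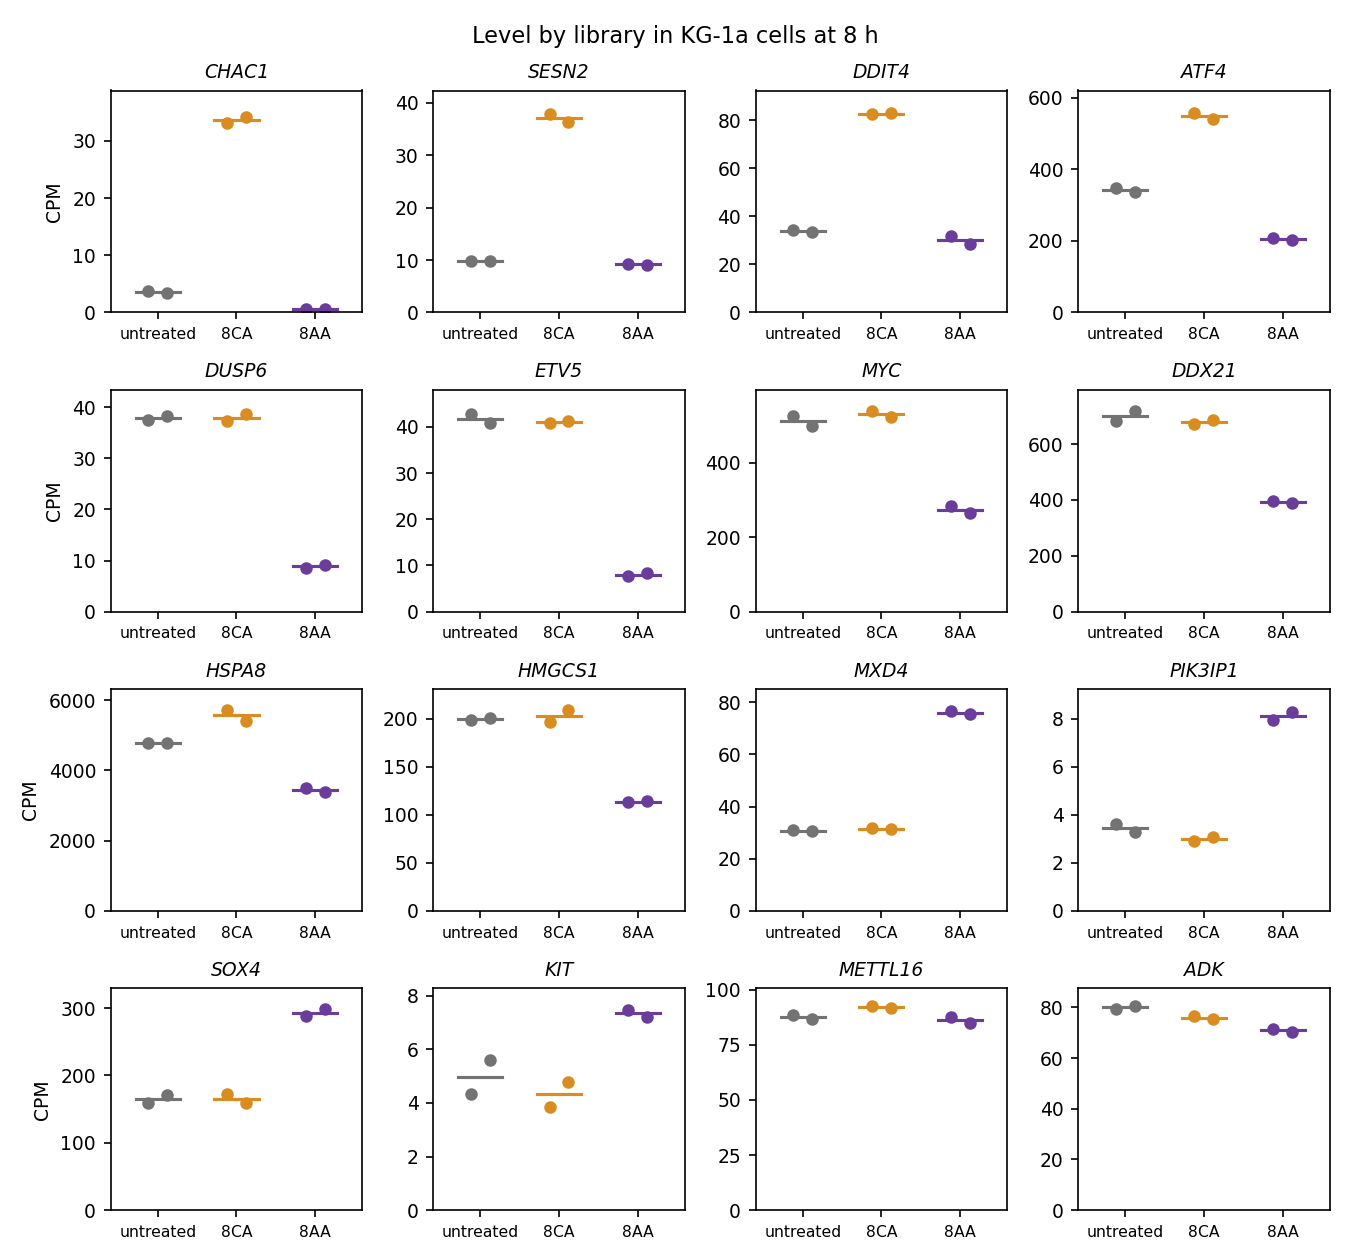
CPM of 16 genes in the 2 untreated, 2 8CA and 2 8AA libraries of KG-1a at 8 h, with a point for each library and a bar at the mean of each group, each panel with its own axis from 0. CHAC1, SESN2, DDIT4 and ATF4 are highest with 8CA, DUSP6 and ETV5 are lower with 8AA alone, MXD4, PIK3IP1, SOX4 and KIT are higher with 8AA, and METTL16 and ADK lie close together in all groups.

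MYC and the genes that build ribosomes were lower with 8AA. MYC, the factor that drives growth and ribosome production, had 539 and 523 CPM with 8CA, 284 and 264 CPM with 8AA and 525 and 500.4 CPM without treatment. The difference between the compounds was -0.96 (SE 0.060, adjusted p = 2.25e-08). Of 36 genes of ribosome biogenesis tested, 31 were lower and 0 higher, beside 15.8% and 14.7% of all genes. The median was -0.44. WDR43, a part of the small-subunit processome, had 192 and 191 CPM with 8CA and 108 and 103 CPM with 8AA (-0.86, SE 0.044). DDX21, a nucleolar helicase, had 671 and 687 CPM with 8CA against 398 and 387 CPM with 8AA (-0.79, SE 0.041), and POLR1B, the second largest subunit of RNA polymerase I, 164 and 166 CPM with 8CA against 103 and 103 CPM with 8AA (-0.68, SE 0.043). In each case the 8AA and 8CA libraries did not overlap, as for all 3868 called genes and 70.8% of all tested. UTP20, NOP16 and PNO1 differed by -0.66, -0.81 and -0.77, and the abundant nucleolar protein NPM1 by -0.22 (SE 0.049). Against untreated cells, 33 of the 36 were lower with 8AA. With 8CA 0 were called, beside 0.881% of all genes, and the median of the list was -0.058. The ribosomal proteins themselves did not go the same way, with 13 of 80 higher and 1 lower at a median of 0.11, beside 14.7% of all genes higher, and the 1 that was lower was RPL7L1 (-0.35), a ribosomal protein-like gene. The number higher was 24 when libraries were scaled by their size only, 32 with no filter on low counts, 46 in a fit of the 6 libraries of 8 h, 55 in a fit of the 4 libraries alone and 0 to 4 without any 1 of the 4 libraries.

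Among the partners and rivals of MYC, MXD4 stood out at the other end. MXD4 pairs with MAX and opposes MYC on shared sites. The 250 bases upstream of its RefSeq start site (chr4:2262110-2262359, minus strand, GRCh38.p14) are shown because they hold CACGTG, the E box on which MAX dimers bind (capitals, from 238 bases before the start site), a motif in 9.18% of all 10073 stretches and in 2 of 31 matched ribosome biogenesis genes.
MXD4: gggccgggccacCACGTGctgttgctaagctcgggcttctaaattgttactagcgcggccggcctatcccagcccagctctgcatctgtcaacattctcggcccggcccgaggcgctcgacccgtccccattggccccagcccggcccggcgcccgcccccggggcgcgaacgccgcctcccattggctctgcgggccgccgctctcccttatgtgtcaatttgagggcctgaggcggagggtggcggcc

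MXD4 had 31.6 and 31.3 CPM with 8CA, 76.5 and 75.6 CPM with 8AA and 31.1 and 30.5 CPM without treatment, and the 8AA libraries were above all others. The difference was 1.27 (SE 0.060, adjusted p = 8.69e-10). MYCN, a relative of MYC, was also higher (44 and 50 counts with 8CA, 120 and 119 counts with 8AA, difference 1.17), as was the antagonist MXD3 (0.41). Of the 14 tested genes of this network, 7 were higher and 3 lower, beside 14.7% and 15.8% of all genes. TXNIP, a target of the glucose-sensing factor MondoA, had 56.4 and 58.0 CPM without treatment, 105 and 104 CPM with 8CA and 131 and 127 CPM with 8AA. TXNIP was thus higher with both compounds, by 0.87 (SE 0.050, adjusted p = 3.62e-08) for 8CA and 1.18 (SE 0.049, adjusted p = 3.97e-10) for 8AA, and higher with 8AA than with 8CA by 0.31. ARRDC3, a related arrestin, was higher with 8AA than with 8CA by 0.55.

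Chaperones were lower with 8AA by small amounts and almost as a list. Of 26 tested, 24 were lower and 0 higher, beside 15.8% and 14.7% of all genes. The median was -0.29, with values from -0.70 to -0.12. HSPA8, the constitutive HSP70, had 5732 and 5417 CPM with 8CA and 3495 and 3390.3 CPM with 8AA, a difference of -0.70 (SE 0.056, adjusted p = 4.36e-07). HSPH1, an HSP110 that recharges HSP70, had 509 and 487 CPM with 8CA against 338 and 324 CPM with 8AA (-0.59). HSP90AA1, the inducible HSP90, was at -0.42, and CCT4, of the ring-shaped folding complex TRiC, at -0.35. BAG3 and HSPB1 were not called, with intervals of -0.39 to 0.11 and -0.34 to 0.11. The genes of the unfolded protein response of the endoplasmic reticulum were mostly not called (1 of 22 higher, 4 lower, beside 14.7% and 15.8% of all genes). XBP1 was at -0.76 and HERPUD1 at -0.65.

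In sterol and fatty acid synthesis, 15 of 28 genes were lower with 8AA and 0 higher, beside 15.8% and 14.7% of all genes. The median was -0.19. HMGCS1, which makes HMG-CoA for the cholesterol route, had 197 and 209 CPM with 8CA and 113 and 115 CPM with 8AA, a difference of -0.83 (SE 0.046, adjusted p = 4.77e-09). CYP51A1, a later enzyme of the same route, was at -0.46 and ACACA, which makes malonyl-CoA for fatty acids, at -0.34. FDPS and LSS were not called, with intervals of -0.12 to 0.12 and -0.11 to 0.086.

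Among the other genes with the lowest values, VEGFA, the angiogenic growth factor, had 19.9 and 21.8 CPM with 8CA and 4.43 and 3.62 CPM with 8AA, which gave -2.37 (SE 0.11, adjusted p = 1.16e-09). ZNF469, a zinc finger gene, had 11.8 and 10.8 CPM with 8CA against 3.04 and 1.68 CPM with 8AA (-2.26, SE 0.18). Of the hypoxia-linked genes, which include VEGFA, 3 of 12 were lower and 2 higher, beside 15.8% and 14.7% of all genes. Their median was -0.021. In glycolysis 6 of 21 were lower and 2 higher, with the glucose carrier SLC2A3 at -0.99 and hexokinase HK2 at -0.47. NRF2 targets were lower in 4 of 19, SLC7A11 among them, beside 15.8% of all genes, and 0 were higher. Leaving out any 1 of the 4 libraries gave 1 to 3 lower NRF2 targets, 0 to 1 higher glycolysis genes and 1 higher hypoxia-linked gene. Of the NRF2 targets, 3 were called higher with libraries scaled by their size only or by the upper quartile.

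Among called genes whose mean log2 CPM reached 2, those highest with 8AA were of mixed function. PIK3IP1, a brake on PI3-kinase, had 2.90 and 3.07 CPM with 8CA, 7.92 and 8.27 CPM with 8AA and 3.62 and 3.30 CPM without treatment. Both 8AA values were above the other 4, and the difference between the compounds was 1.44 (SE 0.13, adjusted p = 9.28e-07). IFIT1, an interferon-induced antiviral protein, had 6.08 and 6.14 CPM with 8CA and 13.9 and 13.3 CPM with 8AA, a difference of 1.16 (SE 0.10, adjusted p = 1.06e-06). RORA, a nuclear receptor, was at 1.15, METTL7A, a methyltransferase-like protein, at 1.09 and MAP1A, a microtubule-binding protein, at 1.04. NOG (noggin), an inhibitor of BMP signals, was at 1.01, MAP2K6, a kinase upstream of p38, at 1.01, VAMP1, of vesicle fusion, at 0.99 and RNPC3, of the minor spliceosome, at 0.95. Noncoding RNAs among them were LINC01089 (0.97) and HHIP-AS1 (0.82). LOC646214 (1.14) is listed as a PAK2 pseudogene and may share reads with PAK2, so its value is uncertain, as is that of HHIP-AS1 if counting ignored strand.

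Of 27 interferon-stimulated genes tested, 8 were higher with 8AA and 1 lower, with a median of 0.18 and a background of 14.7% higher. Without any 1 of the 4 libraries, 5 to 7 were higher and 0 lower. STAT2, a signal carrier for type I interferon, had 26.4 and 27.5 CPM with 8CA and 43.8 and 45.5 CPM with 8AA (0.73, SE 0.065), and IFI44 was at 0.60. MX1 and ISG15 were not called, with intervals of -0.52 to 0.37 and -0.18 to 0.52. IRF7 was called at 0.54 but not without 8CA A (adjusted p = 0.0993) or 8AA A (0.0568). Among 12 genes of MHC class I presentation, 7 were higher by at most 0.26 and 2 lower, and without any 1 of the 4 libraries 0 to 2 were higher and 0 to 2 lower. B2M, the shared light chain, was at 0.15, a call that no fit without 1 of the 4 libraries kept (adjusted p between 0.0612 and 0.0878). Near-identical class I genes may also share reads. Of MHC class II genes, 1 of 10 was tested and it was not called.

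Of 23 blood-cell factors, 8 were higher and 3 lower (5 to 7 and 1 to 2 without any 1 of the 4 libraries). Over all genes, 14.7% were higher and 15.8% lower. SOX4, a factor of immature cells, had 172 and 159 CPM with 8CA, 288 and 298 CPM with 8AA and 159 and 171 CPM without treatment, and the difference between the compounds was 0.83 (SE 0.061, adjusted p = 1.50e-07). KIT, the stem cell factor receptor, had 3.85 and 4.78 CPM with 8CA against 7.48 and 7.20 CPM with 8AA (0.77, SE 0.14), and CD34, the surface marker of progenitors, 399 and 381 CPM with 8CA against 524 and 491 CPM with 8AA (0.38, SE 0.056). ERG, an ETS factor of stem cells, was at 0.43, while LMO2, an adaptor of the same network, was lower at -0.41. TAL1 was at 0.47 and was not called without 8CA A (adjusted p = 0.0965). RUNX1, SPI1 and FLI1 were not called, with intervals of -0.16 to 0.044, -0.35 to 0.26 and -0.12 to 0.047. Among markers of other cells, the collagen gene COL3A1 had 7 and 3 counts with 8CA and 42 and 47 with 8AA, while COL1A1 and COL1A2 were at 0 throughout, and the T-cell gene CD3E was at 0.38, a call lost without 8CA B (adjusted p = 0.101) or 8AA A (0.127).

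Targets of p53, the factor activated by DNA damage, were split, with 6 of 23 higher and 4 lower at a median of -0.036. Over all genes, 14.7% were higher and 15.8% lower. TP53INP1, which promotes p53 activity, had 0.998 and 1.72 CPM with 8CA and 3.22 and 4.48 CPM with 8AA (1.52, SE 0.25). DDB2, of nucleotide excision repair, was at 0.62, ZMAT3 at 0.63 and SESN1 at 0.48. The kinase PLK3 (-0.92) and the nuclease AEN (-0.67) were lower. CDKN1A (p21), the cell cycle inhibitor, had 5.46 and 6.50 CPM with 8CA and 5.01 and 4.83 CPM with 8AA and was not called (-0.28, 95% interval -0.59 to 0.034, adjusted p = 0.168). In the BCL2 family, which decides between survival and apoptosis, 3 of 14 were higher and 2 lower, beside the same shares over all genes. PMAIP1 (NOXA), a sensitizer that is also induced by ATF4, had 56.8 and 58.9 CPM with 8CA and 31.1 and 30.7 CPM with 8AA (-0.90, SE 0.072). The killers BMF (0.53) and BCL2L11 (0.33) were higher, and BCL2, the target of venetoclax, was at -0.24 (SE 0.045, adjusted p = 0.000985). MCL1, the survival protein with a short-lived message, had 193 and 191 CPM with 8CA against 201 and 208 CPM with 8AA and was not called (0.090, 95% interval -0.020 to 0.20, adjusted p = 0.204).

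The cysteine and methionine (C/M) pathway includes MAT2A, which makes S-adenosylmethionine (SAM). MAT2A had 547 and 553 CPM without treatment, 458 and 474 CPM with 8CA and 421 and 406 CPM with 8AA. The untreated libraries were above the 8CA libraries, which were above the 8AA libraries. The direct difference was -0.17 (SE 0.040, adjusted p = 0.00436), with a 95% interval of -0.26 to -0.088. It was not called without 8CA B (adjusted p = 0.0694) or 8AA B (0.0695). Against untreated cells MAT2A was at -0.24 (SE 0.040, adjusted p = 0.00863) with 8CA and -0.41 (SE 0.040, adjusted p = 2.35e-06) with 8AA, and the call for 8CA was lost without any 1 of the 4 libraries compared. METTL16, the methyltransferase that regulates MAT2A splicing, had 92.8 and 91.9 CPM with 8CA and 87.7 and 84.7 CPM with 8AA and was not called (-0.099, 95% interval -0.22 to 0.018, adjusted p = 0.189). Over the C/M list, 8 of 32 were lower and 1 higher with a median of -0.016, so the share lower was 25% beside 15.8% of all genes, and 5 to 6 were lower without any 1 of the 4 libraries. ENOPH1 and SRM, of the methionine salvage and polyamine routes, were at -0.54 and -0.35, BCAT2, of branched-chain amino acid breakdown, at -0.51, and DNMT3B, a DNA methyltransferase, at -0.28.

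Of 17 genes that take up, phosphorylate, break down or sense adenosine, 5 were lower and 2 higher, beside 15.8% and 14.7% of all genes. The nucleoside transporters were both lower: SLC29A1 (ENT1) had 132 and 136 CPM with 8CA and 110.4 and 101 CPM with 8AA (-0.34, SE 0.064), and SLC29A2 (ENT2) had 58.2 and 62.5 CPM with 8CA against 36.7 and 37.5 CPM with 8AA (-0.70, SE 0.060). ADK, the kinase that gives the first phosphate, had 76.5 and 75.3 CPM with 8CA against 71.6 and 70.3 CPM with 8AA and was not called (-0.098, 95% interval -0.22 to 0.021, adjusted p = 0.202). ADA, which deaminates adenosine, was higher at 0.37, and AMPD3, which deaminates AMP, at 0.42, while AK4, an adenylate kinase, was lower at -0.33.

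In the control of transcription elongation, 3 of 25 were lower and 2 higher, beside 15.8% and 14.7% of all genes. HEXIM1, the inhibitor of the elongation kinase P-TEFb, had 46.5 and 49.4 CPM with 8CA and 64.8 and 66.8 CPM with 8AA, a difference of 0.46 (SE 0.058, adjusted p = 3.64e-05). CDK9, the kinase itself, was not called (95% interval -0.055 to 0.16). For m6A methylation, 6 of 20 were lower and 2 higher, with the writer cofactor RBM15B at -0.30 and the reader YTHDF1 at -0.26. In 3′ end processing 6 of 21 were lower, CPSF2 at -0.42 among them, and 2 higher. Among splicing regulators of the SR and CLK families, 6 of 18 were higher, with SRSF5 at 0.46 and CLK1 at 0.53, and 4 lower, with SRPK1 at -0.37. With 1 of the 4 libraries left out, 2 to 5 of these splicing regulators were higher and 2 lower, 3 to 5 m6A genes were lower and 0 to 1 higher, 4 to 5 genes of 3′ end processing were lower and 0 to 1 higher, and 1 to 2 elongation genes were lower and 1 higher.

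Beside 14.7% of all genes higher and 15.8% lower, DNA replication genes were higher in 10 of 28, LIG1 (0.32) and CCNE2 (0.40) among them, and lower in 2, and mitosis genes higher in 1 of 30 and lower in 5 (median -0.020). Respiratory chain genes were higher in 14 of 77 and lower in 1, with values of at most 0.29. Without any 1 of the 4 libraries, 4 to 6 DNA replication genes and 1 to 7 respiratory chain genes were higher, and 1 to 2 mitosis genes were lower. Proteasome genes were higher in 2 of 46 and lower in 6, NF-kB targets higher in 5 of 17 and lower in 3, snoRNA host genes higher in 4 of 19 and lower in 3, clustered histones higher in 1 of 29 and lower in 1, and zinc finger genes of chromosome 19 higher in 21 of 234 and lower in 32 (10 to 15 and 12 to 18 without any 1 of the 4 libraries). When 1 of them was left out, 0 to 1 proteasome genes were higher and 3 to 5 lower, 3 to 5 NF-kB targets were higher and 1 to 2 lower, and 2 to 4 snoRNA host genes were higher and 2 lower. By level, the share of genes called lower rose from 5.03% in the lowest of 5 equal groups by mean level to 26.4% in the highest, and the share called higher was 5.94% in the lowest and 16.1% to 18.3% in the other 4. The median SE was 0.32 in the lowest group and 0.051 in the highest, so the groups differ in how small a difference could be called. The median log2 difference was 0.013 in the lowest and -0.019 in the highest. Of the 90 genes lower by at least 1, 60 lay in the lowest group, as did 51 of the 60 genes higher by at least 1. LINC genes were higher in 14 of 110 and lower in 6, and antisense RNAs higher in 39 of 245 and lower in 18, which cannot be told from their partner genes if strand was ignored in counting.

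**Figure D4:**
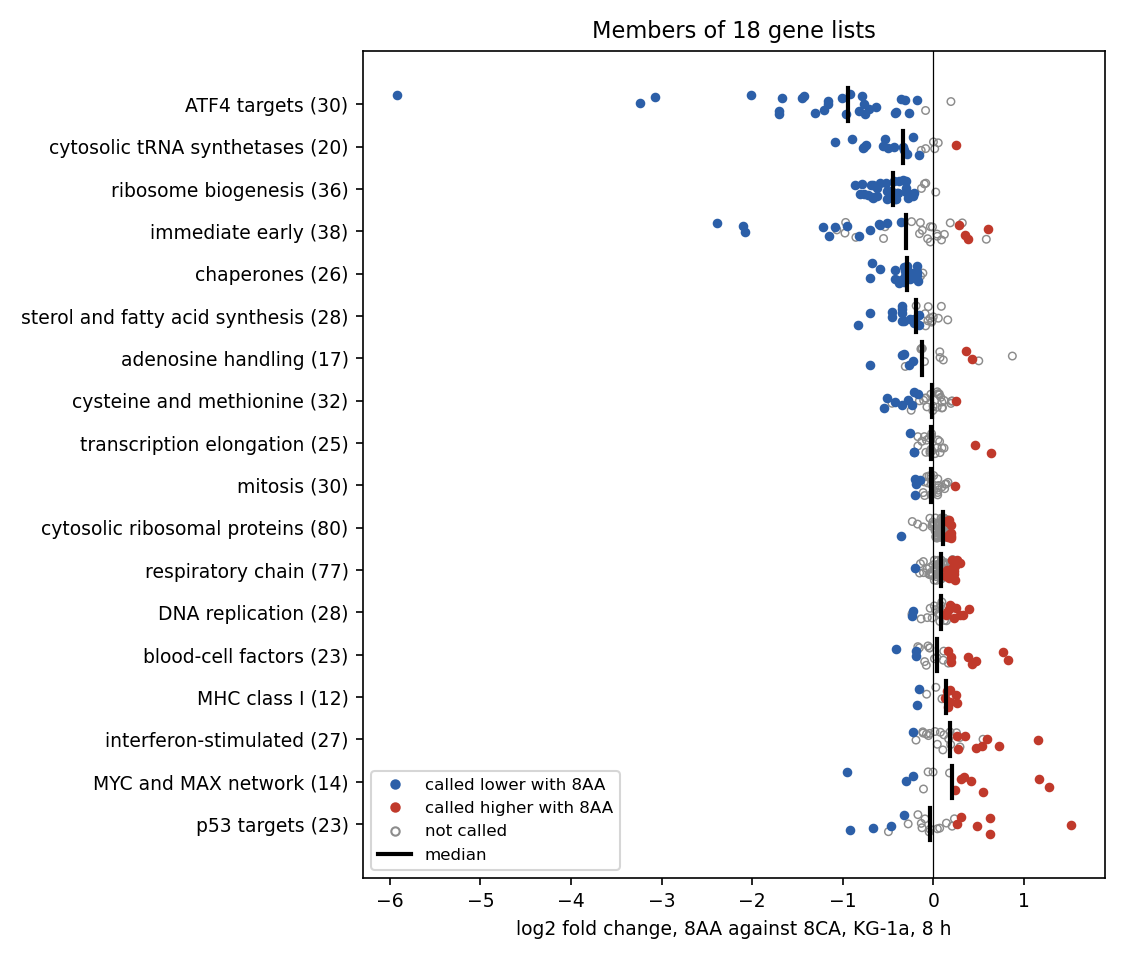
log2 fold change of 8AA against 8CA in KG-1a at 8 h for the tested members of 18 gene lists, with the number of members in brackets, filled points for members called lower (blue) or higher (red), open points for those not called and a black bar at the median. The medians of the ATF4 list (-0.94) and of ribosome biogenesis (-0.44) lie furthest from zero, and those of the C/M and p53 lists lie near it.

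The same contrast at 24 h rests on libraries that share none with those of 8 h, and it called 5336 genes, 42.0% of 12711, with 2584 higher (20.3%) and 2752 lower (21.7%). Scaled by library size only, the lower share of these calls was 36.4% instead of 51.6%. Across genes, which are not independent replicates, the 8 h and 24 h values had a Pearson r of 0.558 and a Spearman rho of 0.587. Of the 3868 genes called at 8 h, 3484 (90.1%) had the same sign at 24 h. At both times 2632 were called, 68.0% of the 8 h calls and 49.3% of the 24 h calls, and 84 of these had opposite signs. The 2 libraries of 8AA at 24 h differed more from each other than any other pair, with a chi-square per degree of freedom of 12.3. The size of the difference changed with time at 1107 genes (8.71%), and at 2334 without 8AA A of 24 h, at 2438 without 8AA B of 24 h and at 560 to 623 without any 1 of the other 6. The value was lower at 8 h than at 24 h for 45.0% of the 1107, and for 62.2% of the 1183 called when libraries were scaled by their size only.

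For the ATF4 list the gap between 8AA and 8CA was wider at 24 h. Neither compound was set against untreated cells at 24 h here, so which of them changed was not tested. All but 1 of its 30 members were lower at 24 h (29 of 30), the median was -2.04 beside -0.94 at 8 h, and the change with time was called for 27 members. PSAT1 was at -1.20 at 8 h and -3.57 at 24 h, and ALDH1L2 at -1.67 and -4.38. The tRNA synthetases were lower in 17 of 20 at 24 h, with a median of -1.12. Ribosome biogenesis genes were lower in 31 of 36 at 24 h, as many as at 8 h, with a median of -0.47. For sterol and fatty acid genes the direction of the difference turned. At 8 h 15 of 28 were lower with 8AA and 0 higher, and at 24 h 20 were higher and 2 lower, with a change with time called for 19 of them. HMGCS1 was at -0.83 at 8 h and 0.60 at 24 h, with 72.9 and 74.8 CPM with 8CA and 109 and 114 CPM with 8AA at 24 h. Its 8 h levels, given above, were higher than these with 8CA and about the same with 8AA. Ribosomal protein genes were 13 higher and 1 lower at 8 h and 2 higher and 39 lower at 24 h (lower in 72 without 8AA A of 24 h, in 28 without 8AA B or 8CA B and in 21 without 8CA A). In the same order, mitosis genes were 1 and 5 at 8 h and 23 and 0 at 24 h, and chaperones 0 and 24 at 8 h and 4 and 12 at 24 h (8 lower without 8CA A or 8AA B of 24 h).

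**Figure D5:**
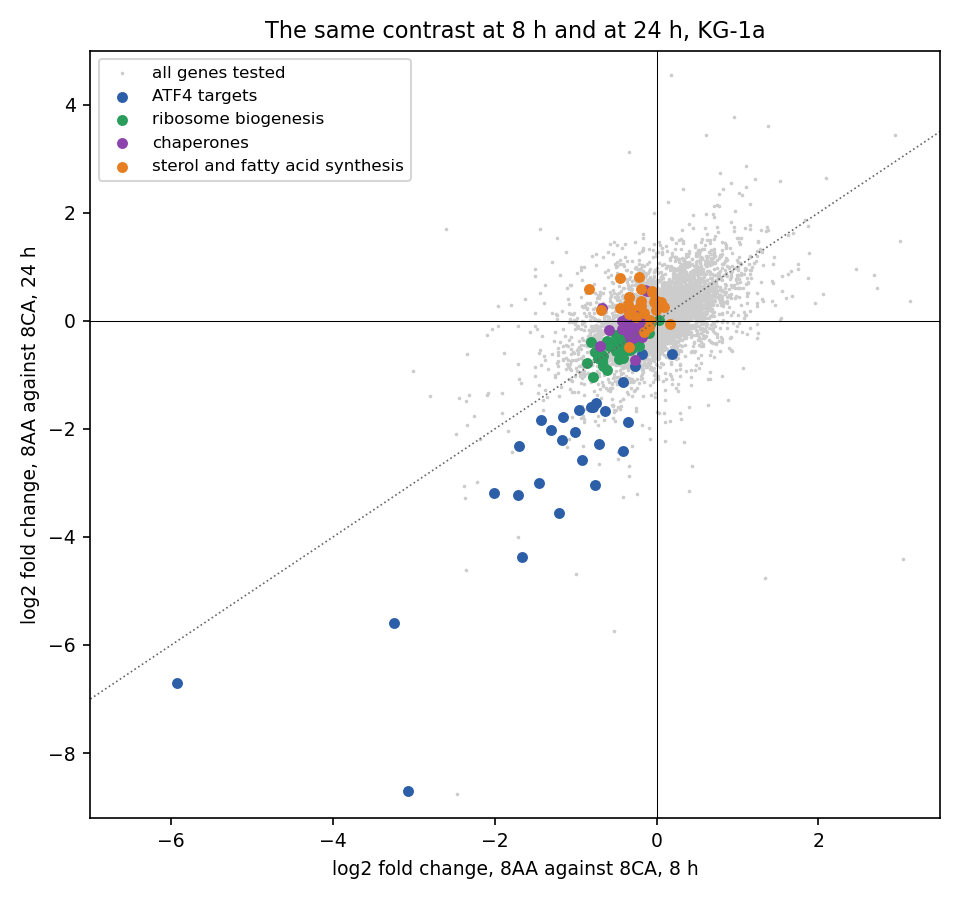
log2 fold change of 8AA against 8CA in KG-1a at 8 h (horizontal axis) and at 24 h (vertical axis) for all 12711 genes tested (grey), with 4 gene lists in colour and a dotted line where both values are equal. ATF4-list members lie below zero at 24 h and mostly below the dotted line, and sterol and fatty acid genes lie mostly left of zero at 8 h and mostly above it at 24 h.

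In MV4-11, an AML line driven by an MLL fusion and an activated FLT3 receptor, the same contrast at 8 h called 861 of 14055 genes, 6.13%, with 498 higher and 363 lower, and 373 to 451 without any 1 of its 4 libraries. The balance turned to 473 higher and 565 lower with no filter on low counts and to 416 and 434 with at least 10 in each library. It was 192 and 193 without 8CA A, 244 and 129 without 8CA B, 293 and 129 without 8AA A and 222 and 229 without 8AA B. Over the 12711 genes of the KG-1a test, r was 0.134 and rho 0.290 across genes, and 2823 of the 3868 KG-1a calls (73.0%) had the same sign. Both lines called 462, 11.9% of the KG-1a calls and 59.1% of the 782 MV4-11 calls among these genes, and 45 of them had opposite signs. A difference between the lines was called at 1169 genes, 8.32% of 14055, 386 of them with a higher value in KG-1a, and at 650 to 908 without any 1 of the 8 libraries. The lower share of these was 67.0%, and 49.9% when libraries were scaled by their size only. The ATF4 list had 15 lower and 0 higher members in MV4-11, with a median of -0.26, and differed between the lines at 19. Without any 1 of the 4 MV4-11 libraries, 7 to 12 were lower. CHAC1 had 49 to 65 counts with 8CA and 23 to 37 with 8AA in MV4-11, beside 659 to 697 and 12 to 13 in KG-1a. Its value was -0.98 (SE 0.21, adjusted p = 0.00486) in MV4-11. DNA replication genes were higher in 0 of 28 and lower in 11 in MV4-11, beside 10 higher and 2 lower in KG-1a. Over all genes of the MV4-11 test, 3.54% were higher and 2.58% lower. A difference between the lines was called for 17 of the 28. MYC was at -0.29 (SE 0.055, adjusted p = 0.00217) in MV4-11, beside -0.96 in KG-1a, and the ribosome biogenesis list had 11 lower members there, beside 31 in KG-1a, with a difference between the lines called for 22. Without any 1 of the libraries compared, these counts were 6 to 9 in MV4-11 and 13 to 20 for the difference. Chaperones were lower at 11 of their members in MV4-11 (4 to 7 without any 1 of the 4 libraries) and 0 were higher.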

How the data were processed

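RNA-seq counts were taken as the authors deposited them, 1 whole number of reads per gene and library for 23354 genes and 24 libraries, not normalized. The submitters' processing notes name Trimmomatic, STAR 2.6.0, HTSeq 0.11.1 and edgeR, and the builds hg19 and hg38 without a role. The order of these tools, the annotation and the strand setting were not given in the sources used here. Reads of paralogs, overlapping and antisense genes may be shared or split.

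Libraries were matched to groups by their titles, and 0 count columns were left unmatched. The contrast libraries held 19597279 to 23181651 counts, and with 2 libraries per group the precision rests on the spread shared across genes and groups. The 12 KG-1a libraries were fitted together with edgeR 4.0.16 in R 4.3.3 (limma 3.58.1), with 1 coefficient per group, after filterByExpr with a minimum count of 10 and TMM scaling. Quasi-likelihood tests were adjusted by Benjamini-Hochberg over 12711 genes and called below 0.05. Each SE is the absolute log2 difference, before any prior count, divided by the square root of the F statistic. The 95% intervals were built from it. It is not a separately estimated standard error and may be too small where a group has few counts. Values in MV4-11 and differences between the lines came from a fit of all 24 libraries (14055 genes). CPM of single genes are TMM-scaled, and summed marker levels are scaled by library size only. Alternatives included DESeq2 1.42.0, other scalings and filters, other sets of libraries, the replicate letter as a block and leaving out each library.

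Gene lists and the choice to describe this contrast were made with earlier results of these data known. Lists are described by counts and medians with no set test. Named genes were those with the 12 highest and the 12 lowest values and the 5 smallest p in each direction among called genes whose mean log2 CPM reached 2, up to 4 called members of each list with the smallest p, a fixed set (MAT2A, METTL16, ADK, SLC29A1, HEXIM1, MYC, CDKN1A, MCL1 and BCL2), and the 4 largest changes with time and between lines. Y-linked genes and XIST were not named. Some genes that the rule names are not reported here. Further genes in the text were chosen after their values were seen. The test was tested on simulated data of the direct contrast, in which it recovered 80 of 100 genes changed by 0.5 log2 units and 91 of 100 changed by 1, among 12648 genes and with 9 false calls. The counts were drawn from the fitted model itself, and genes with low fitted means were not among those changed. These figures therefore do not cover changes in low-count genes or spread that the model leaves out. Upstream sequences came from RefSeq (GRCh38.p14) and were matched by symbol for 9597 tested genes and by an older symbol for 476.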

Additional observations from a re-analysis of the deposited data

Results flagged for a closer look

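The difference between 8AA and 8CA was not the same at 8 h and at 24 h for 1107 genes by the test of the change itself. Described are the 4 with the largest change among genes whose mean log2 CPM reached 2. For each of them the value at 8 h was less negative than the one at 24 h. MFAP4, an extracellular matrix protein, was at -0.24 at 8 h and -3.20 at 24 h, a change of 2.96 (SE 0.23), with 31.5 and 29.7 CPM with 8CA and 4.01 and 2.56 CPM with 8AA at 24 h. ALDH1L2 changed by 2.71 (SE 0.16), from -1.67 at 8 h to -4.38 at 24 h. WARS, the tryptophanyl-tRNA synthetase, changed by 2.53 (SE 0.075), from -0.34 to -2.86, and had 615 and 607 CPM with 8CA and 88.8 and 78.9 CPM with 8AA at 24 h. PSAT1 changed by 2.36 (SE 0.064). The spread of the 24 h libraries of 8AA, given above, enters all of these values.

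The difference between the compounds at 8 h was not the same in KG-1a and MV4-11 for 1169 genes. CHAC1 differed between the lines by -4.96 (SE 0.33), at -5.92 in KG-1a and -0.98 in MV4-11, where its counts with 8CA were low (49 to 65 counts, beside 659 to 697). ZNF469 differed by -2.19 (SE 0.18). It had 208 to 248 counts with 8CA and 39 to 68 with 8AA in KG-1a, and 743 to 859 and 712 to 854 in MV4-11. MAP7, a microtubule-binding protein, differed by 3.56, a value that depends on the prior count of the fit because the gene was nearly silent in MV4-11. MAP7 had 1050 to 1247 and 1759 to 1865 counts in KG-1a, and 4 to 6 and 0 to 1 in MV4-11.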

How the results depend on the processing

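Across DESeq2's size factors, library size only, upper-quartile scaling, all genes kept, a minimum of 10 in each library, the fits of 6 and of 24 libraries and the DESeq2 Wald test, the direct contrast made 2917 to 4947 calls, beside 3868, the lowest with the Wald test. It called 5811 in a fit of its 4 libraries only, 150 with a log2 difference of at least 1 as well, and 2237 to 2386 without any 1 library. With the difference of at least 1, 8AA against untreated cells called 237 genes, 8CA against untreated cells 6, the contrast at 24 h 431, the change with time 93, MV4-11 26 and the difference between lines 82. 8CA against untreated cells called 272 with no filter, 503 in the fit of the 6 libraries of 8 h and 184 in the fit of all 24. Without any 1 library, 8CA against untreated called 28 to 37, 8AA against untreated 2841 to 3265, the contrast at 24 h 3820 to 5961, the change with time 560 to 2438, MV4-11 373 to 451 and the difference between lines 650 to 908. Of the calls of a difference between lines, 67.0% were lower in KG-1a, or 55.7% with DESeq2's size factors. No named gene turned its sign past the threshold in the direct contrast. Of 177 named genes that were called, 141 kept the call in every alternative that tested them, of up to 14 other than the further threshold of at least 1, and 36 lost it in at least 1. Of 10 that were not called, 3 were called in the fit of 4 libraries (MCL1, METTL16 and ALDH18A1). The causes of these changes were not tested. A fit that leaves out 1 library assumes that its lone partner varies like the other groups. The replicate letters share only a letter, since the labels tie them to no culture or day: deviations of same-lettered libraries correlated across genes at 0.0244 for 8AA and 8CA, 0.0357 for 8AA and untreated and -0.013 for 8CA and untreated. With the letter as a replicate block, the direct contrast called 3872 genes, 8AA against untreated 4423, 8CA against untreated 110, the contrast at 24 h 5402, the change with time 1102, MV4-11 1144 and the difference between lines 1494.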

Other observations

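Of genes turned on by NF-kB, a factor of inflammation and survival, 5 of 17 were higher with 8AA than with 8CA and 3 lower. Over all genes, 14.7% were higher and 15.8% lower, and the counts of this list moved with the libraries used, as given above. TNFAIP3, which shuts the pathway off, had 23.9 and 24.0 CPM with 8CA and 35.4 and 37.0 CPM with 8AA (0.59, SE 0.074), and the adhesion molecule ICAM1 was lower at -0.62 (SE 0.082). BIRC3, an inhibitor of apoptosis, had 51.9 and 53.2 CPM with 8CA and 71.5 and 74.9 CPM with 8AA (0.48, SE 0.070). Among hosts of small nucleolar RNAs, DANCR had 72.8 and 75.0 CPM with 8CA and 105 and 102 CPM with 8AA (0.49, SE 0.061) and SNHG8 had 79.0 and 81.6 CPM with 8CA and 97.1 and 97.2 CPM with 8AA (0.27, SE 0.059), while SNHG16 had 224 and 222 CPM with 8CA and 143 and 144 CPM with 8AA (-0.64, SE 0.050). In glucose uptake, SLC2A1 had 68.9 and 71.2 CPM with 8CA and 51.2 and 51.2 CPM with 8AA (-0.45, SE 0.052) and SLC2A3 had 89.8 and 92.2 CPM with 8CA and 47.1 and 44.8 CPM with 8AA (-0.99, SE 0.055).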
